A study of Rattus norvegicus with 14 samples.

Results

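The genes described are 10 conjugating enzymes of the rat choroid plexus (CP): the cytosolic glutathione transferases Gstm1, Gstm2, Gstm5, Gsta4, Gstp1 and Gstt1, the membrane-bound glutathione transferases Mgst1, Mgst2 and Mgst3, and the glucuronosyltransferase Ugt1a6. They were found by the accession that each array probe carries, and all 10 were measured, out of 15154 genes that could be named in this way. The arrays compared the lateral ventricle CP of Wistar rats, 2 months old at surgery, taken 2 weeks after gonadectomy: 3 pools from ovariectomized (OVX) females, 3 pools from sham-operated females, 4 pools from orchidectomized (OOX) males and 4 pools from sham-operated males. Each pool held RNA from 3 animals and was hybridised to 1 array in 1 colour. The methods state 3 pools per group and list fewer animals per group than separate pools would need, so pools of a group may share animals, and p-values measure only the spread between these pools. The labels name no other treatment in any group.

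The CP is the tissue of the brain ventricles that makes cerebrospinal fluid, and its epithelium is a barrier between blood and that fluid. Glutathione transferases join the tripeptide glutathione to electrophilic compounds, such as drugs, products of lipid peroxidation and oxidized estrogens, and glucuronosyltransferases join glucuronic acid to phenols and other compounds, so that the products can be carried out of the cell. Rat CP is known for high activity of both kinds of enzyme. The cytosolic enzymes fall into classes named by Greek letters (mu for Gstm, alpha for Gsta, pi for Gstp, theta for Gstt), and the membrane-bound ones belong to an unrelated protein family.

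The promoters of 3 members are shown because the female comparison turns on Gstm5 and Ugt1a6, and because Gstm1 is a close relative of Gstm5 whose groups overlapped. Each sequence is the RefSeq promoter window in the GRCr8 assembly, 5′ to 3′ on the strand of the gene, with 250 bases before the annotated start and 50 after it. Capitals mark matches to 2 motifs searched on both strands, the core of the antioxidant response element that NRF2 binds, TGACNNNGC, and the core of the xenobiotic response element that the aryl hydrocarbon receptor binds, GCGTG.
Gstm5 (chr2:198219519-198219818, plus strand): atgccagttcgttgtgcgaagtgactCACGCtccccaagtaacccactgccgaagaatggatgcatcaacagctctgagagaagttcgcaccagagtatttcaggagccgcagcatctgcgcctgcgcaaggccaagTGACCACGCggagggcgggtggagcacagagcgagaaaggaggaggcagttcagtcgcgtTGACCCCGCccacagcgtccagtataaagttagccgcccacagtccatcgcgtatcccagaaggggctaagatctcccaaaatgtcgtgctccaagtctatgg
Gstm1 (chr2:198343334-198343633, minus strand): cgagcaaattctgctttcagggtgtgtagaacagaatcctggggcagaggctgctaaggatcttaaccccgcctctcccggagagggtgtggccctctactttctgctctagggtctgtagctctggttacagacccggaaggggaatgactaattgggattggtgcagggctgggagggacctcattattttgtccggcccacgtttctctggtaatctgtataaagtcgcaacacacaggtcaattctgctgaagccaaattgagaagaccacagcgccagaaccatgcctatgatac
Ugt1a6 (chr9:96194768-96195067, plus strand): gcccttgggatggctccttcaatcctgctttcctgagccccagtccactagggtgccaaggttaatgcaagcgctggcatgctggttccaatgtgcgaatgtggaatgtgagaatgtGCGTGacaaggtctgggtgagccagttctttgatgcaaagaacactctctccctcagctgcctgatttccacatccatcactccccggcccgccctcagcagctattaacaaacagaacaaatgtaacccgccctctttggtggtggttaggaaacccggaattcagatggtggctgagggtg

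The window of Gstm5 held 2 matches to the antioxidant motif, beginning at positions -113 and -53 from the start, and 2 matches to the xenobiotic motif on the opposite strand, 1 of which lies inside the first antioxidant match. The window of Ugt1a6 held 1 xenobiotic match and no antioxidant match, and the window of Gstm1 held neither. Windows were found for 8 of the 10 genes, not for Gstt1 and Mgst2. Of these 8, 2 (Gstm5 and Gstp1) held the antioxidant motif, against 12.1% of all 33469 rat promoter windows, and 5 held the xenobiotic motif, against 29.7% of all windows. None of the 8 held the estrogen response element, GGTCA with its inverted repeat after a spacer of 3 bases, or the androgen response element, AGAACA with its inverted repeat after the same spacer, which 0.027% and 0.015% of all windows held. A match describes the letters of the window and says nothing of binding in these tissues.

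All values below are log2 signals minus the median log2 signal of the probes of the same array, so that 1 unit is a doubling. Since each probe binds its target with its own strength, levels are compared between groups for 1 gene and never between genes. All 10 genes were well above background on all 14 arrays by the judgement of the scanner software. All 12 CP epithelial markers listed, among them Ttr, Folr1 and Kl, were also well above background on all 14 arrays, with mean levels of 7.16 to 7.71 in OVX females, 7.53 to 7.78 in sham females, 7.18 to 7.63 in OOX males and 7.52 to 7.70 in sham males. Of these 12 probes 7 were saturated on at least 1 array, 5 of them, Ttr and Folr1 among them, on all 14, and the level of the 5 that were never saturated was 6.20 to 6.54 in OVX females, 6.47 to 6.79 in sham females, 6.08 to 6.65 in OOX males and 6.45 to 6.72 in sham males. Markers of astrocytes, neurons and other cells were detected as well and varied between arrays, most of all those of neurons, whose mean level ran from -1.97 to -1.05 in OVX females, from -1.64 to 0.09 in sham females, from -1.81 to 0.35 in OOX males and from -2.14 to 0.58 in sham males. OOX male 2 and sham male 1 had the highest levels of astrocyte markers of all 14 arrays, 4.02 and 3.75. The arrays lay on 5 slides scanned on 2 days. Of the females, OVX female 1 and sham female 3 shared a slide, sham females 1 and 2 lay on another slide of the same day, and OVX females 2 and 3 were scanned on the second day, with all males.

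**Figure D1:**
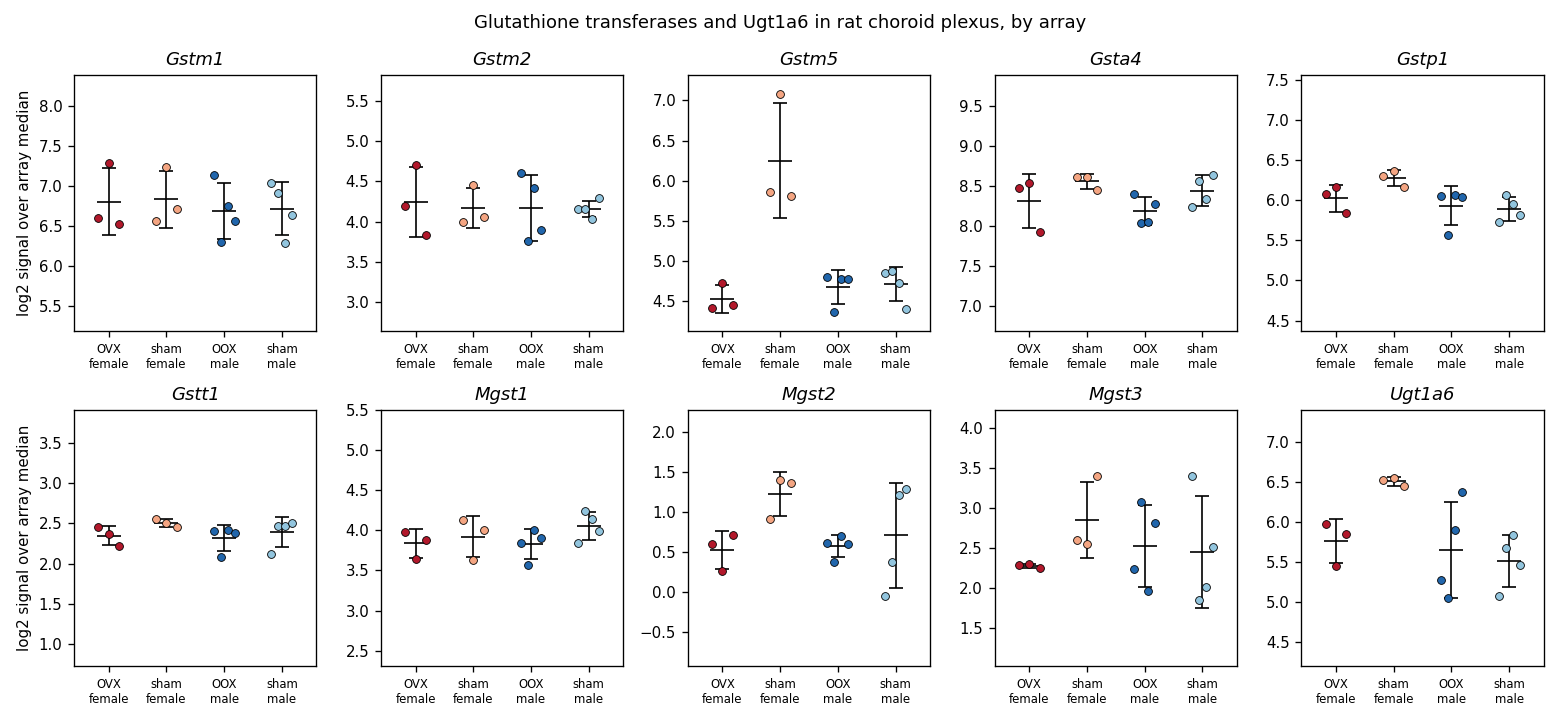
Log2 signal over the array median (y axis) of the 10 genes in each group (x axis), 1 point per array, with the mean and SD of the group as a bar and whiskers. All panels span the same height in log2 units, and the 3 sham female points of Gstm5, at 5.81 to 7.08, stand above all points of the other 3 groups, at 4.36 to 4.87.

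In females, ovariectomy was followed by a lower signal of Gstm5, the only 1 of the 10 genes that passed an adjusted p of 0.05 in limma, and by lower values in all OVX than in all sham pools for Ugt1a6, Mgst2, Mgst3, Gstp1 and Gstt1, which did not pass. The counts were 1 of 10 called lower and 0 of 10 called higher, against 4.42% and 1.83% of all named genes. Among the 11460 named genes well above background on every array, as the 10 were, 108 were called lower and 120 higher. OVX pools lay wholly below sham pools for 6 of the 10 genes and wholly above for 0, against 16.2% and 11.5% of all named genes. The median difference of the 9 genes other than Gsta4, whose probe was saturated, was -0.25, against -0.07 over all named genes. At an unadjusted p under 0.05 limma gave 3027 of the 15154 named genes and 1452 of the 11460 well above background on every array. Of the 10 genes it gave 3, Gstm5, Ugt1a6 and Mgst2. The same 3 passed the thresholds that the methods name, an unadjusted p under 0.05 in a t-type test and a fold above 1.5. On the slide that held 1 array of each female group, OVX minus sham was -1.40 for Gstm5, -1.11 for Mgst3, -0.75 for Mgst2, -0.47 for Ugt1a6, -0.09 for Gstp1 and -0.0014 for Gstt1, a comparison with no replicate.

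Gstm5 encodes a mu-class transferase, and the rat gene lies in a cluster with Gstm1 and Gstm2. Its log2 signal was 4.41, 4.72 and 4.45 in OVX females, against 5.86, 7.08 and 5.81 in sham females. The groups did not overlap, and sham female 2 was the highest of the 14 arrays. The difference was -1.72 (SE 0.36, 95% confidence interval -2.58 to -0.87, limma adjusted p = 0.0423), a ratio of 0.303. In males the signal was 4.80, 4.36, 4.77 and 4.78 in OOX pools, against 4.85, 4.87, 4.73 and 4.40 in sham pools, a difference of -0.03 (95% confidence interval -0.41 to 0.34, adjusted p = 0.979). The male groups overlapped throughout, and all 8 male arrays, at 4.36 to 4.87, lay below all sham female arrays. Without sham female 2 the female difference was -1.31 (adjusted p = 0.0282), and without any other female array it ran from -1.94 to -1.66 and no longer passed (adjusted p 0.0924 to 0.121). With scan day as a block the difference was -1.84, and with slide as a block it was -1.40. Both rest on OVX female 1, since OVX females 2 and 3 shared no slide or scan day with a sham female.

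Gstm1 and Gstm2, the other mu-class members measured, did not follow Gstm5. Gstm1 stood at 6.60, 7.28 and 6.52 in OVX females, against 6.55, 7.23 and 6.71 in sham females, and Gstm2 at 4.19, 4.70 and 3.84, against 4.0, 4.46 and 4.05. The groups of both genes overlapped, with differences of -0.03 (95% confidence interval -0.69 to 0.63) for Gstm1 and 0.07 (95% confidence interval -0.54 to 0.69) for Gstm2. In males Gstm1 stood at 7.13, 6.29, 6.75 and 6.56 in OOX pools, against 7.03, 6.91, 6.28 and 6.63 in sham pools, and Gstm2 at 4.60, 3.76, 4.42 and 3.90, against 4.15, 4.16, 4.04 and 4.29. The male differences were -0.03 for Gstm1 and 0.01 for Gstm2, with intervals of -0.55 to 0.50 and -0.46 to 0.48. Both genes were highest in females on the same 2 arrays, OVX female 2 and sham female 2, and OOX male 1 had the highest male value of both. Over all 14 arrays, about the means of their groups, their Pearson correlation was 0.83, the highest of the 45 pairs of members, as a description of arrays that share scaling and, in part, slides. The probes of these close relatives may bind transcripts of each other, which was not tested here because probe sequences were not used.

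Gsta4, an alpha-class transferase known for conjugating 4-hydroxynonenal, a product of lipid peroxidation, was read by a probe that was saturated on 11 of 14 arrays. The saturated arrays were 2 of 3 OVX, 3 of 3 sham female, 4 of 4 OOX and 2 of 4 sham male arrays. Its measured log2 levels were 8.47, 8.54 and 7.93 in OVX females, against 8.61, 8.61 and 8.45 in sham females, and 8.39, 8.04, 8.05 and 8.27 in OOX males, against 8.23, 8.56, 8.33 and 8.64 in sham males. Before scaling, its signal ran only from 58406 to 74129 over the 14 arrays. The scaled levels of a saturated probe follow the array median, so no fold is given.

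Gstp1, the pi-class transferase, and Gstt1, a theta-class transferase that also acts on small halogenated compounds, were both slightly lower in all OVX than in all sham pools. Gstp1 was 6.08, 6.16 and 5.84 in OVX females, against 6.30, 6.37 and 6.17 in sham females. Gstt1 was 2.46, 2.37 and 2.22 in OVX females, against 2.56, 2.51 and 2.46 in sham females, with the highest OVX and lowest sham array apart only in the next decimal. The differences were -0.25 (95% confidence interval -0.59 to 0.08, adjusted p = 0.349) and -0.16 (95% confidence interval -0.46 to 0.14, adjusted p = 0.496), and neither passed. In males Gstp1 was 6.05, 5.56, 6.07 and 6.04 in OOX pools, against 5.73, 6.06, 5.95 and 5.81 in sham pools, and Gstt1 was 2.41, 2.08, 2.42 and 2.38, against 2.11, 2.47, 2.46 and 2.51. The male groups of both genes overlapped, with differences of 0.04 (95% confidence interval -0.32 to 0.41) and -0.07 (95% confidence interval -0.41 to 0.27).

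The membrane-bound enzymes differed among themselves. Mgst1, the microsomal transferase of endoplasmic reticulum and outer mitochondrial membrane, was 3.98, 3.64 and 3.88 in OVX females, against 4.12, 3.63 and 4.0 in sham females, with overlapping groups and a difference of -0.08 (95% confidence interval -0.51 to 0.35). In OOX males it was 3.84, 3.57, 4.01 and 3.90, against 3.84, 4.25, 4.14 and 4.0 in sham males, a difference of -0.23 (95% confidence interval -0.57 to 0.12, adjusted p = 0.827). Mgst2, whose human form can make leukotriene C4, was 0.61, 0.26 and 0.71 in OVX females, against 0.91, 1.40 and 1.36 in sham females. The groups did not overlap, and the difference of -0.70 (SE 0.20, 95% confidence interval -1.17 to -0.23) had an adjusted p of 0.0884. In males Mgst2 was 0.62, 0.38, 0.70 and 0.60 in OOX pools, against -0.05, 0.37, 1.21 and 1.29 in sham pools, so that the 4 OOX arrays lay between the 2 lower and the 2 higher sham arrays. The 2 lower sham males shared a slide with OOX male 4 and the 2 higher ones lay on another slide with no OOX array; the pooled male difference was -0.13 (95% confidence interval -0.82 to 0.55), and within the shared slide it was 0.44.

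Mgst3, whose human form has glutathione peroxidase activity toward lipid hydroperoxides, was 2.29, 2.30 and 2.26 in OVX females, against 2.61, 2.56 and 3.40 in sham females. All OVX arrays were lower, and the difference of -0.57 (95% confidence interval -1.16 to 0.01, adjusted p = 0.232) was -0.30 without sham female 3. In males Mgst3 was 2.25, 3.08, 1.96 and 2.82 in OOX pools, against 3.41, 1.85, 2.02 and 2.52 in sham pools, overlapping throughout, with a difference of 0.08 (95% confidence interval -0.78 to 0.94). Astrocyte markers moved with Mgst3: their mean level over 10 of 10 listed genes, each well above background on all arrays, was 2.45 to 3.04 in OVX females, 2.69 to 3.43 in sham females, 2.44 to 4.02 in OOX males and 2.01 to 3.75 in sham males. Over the 14 arrays the Pearson correlation of Mgst3 with that level was 0.72, and 0.70 about the group means. Other neural markers moved with Mgst3 as well. The correlation was 0.61 with neuron markers (0.56 about the group means) and 0.48 with oligodendrocyte markers (0.58 about the group means). The part of these markers in the Mgst3 values was not tested, and in bulk CP fewer cells of a type and less RNA per cell cannot be told apart.

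Ugt1a6 glucuronidates small planar phenols, and its human form also glucuronidates serotonin. Its brighter probe read 5.97, 5.45 and 5.85 in OVX females, against 6.52, 6.55 and 6.44 in sham females. The groups did not overlap and the 3 sham arrays lay close together, with a difference of -0.75 (SE 0.17, 95% confidence interval -1.15 to -0.34), a ratio of 0.596. The adjusted p of 0.0504 missed the threshold. Over the alternatives that kept all arrays the lowest was 0.0399, with the probes of every gene averaged (-0.65). The methods' t-test gave 0.119 after Benjamini-Hochberg adjustment. With slide as a block, which rests on OVX female 1 and sham female 3, the difference was -0.47. The dimmer probe read 3.79, 3.99 and 3.41 in OVX females, against 4.30, 4.30 and 4.22 in sham females, again without overlap, with a difference of -0.54 (95% confidence interval -0.96 to -0.13, adjusted p = 0.123). Both probes carry the same accession, and since genes of the Ugt1a locus share their last exons, they may also read other transcripts of that locus. Ugt1a9, another gene of that locus, differed by -0.20 in females with overlapping groups (95% confidence interval -0.74 to 0.34). In males it differed by -0.38, lower in all OOX than in all sham pools (95% confidence interval -0.76 to 0.003). Which transcripts each probe reads was not tested.

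In males the brighter Ugt1a6 probe read 5.27, 5.05, 5.90 and 6.37 in OOX pools, against 5.07, 5.67, 5.84 and 5.47 in sham pools. The OOX pools spread more widely than the sham pools and enclosed them, with a difference of 0.13 (95% confidence interval -0.57 to 0.83, adjusted p = 0.961). On the slide that held OOX male 4 and sham males 1 and 2 the difference was 1.0, and without OOX male 4 it was -0.11. The dimmer probe gave 3.69, 2.92, 3.55 and 3.48 in OOX pools, against 3.34, 3.28, 3.45 and 3.50 in sham pools, a difference of 0.02, and did not place OOX male 4 apart.

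Genes listed as markers of ependyma, the ciliated lining of the ventricles, moved with the brighter probe of Ugt1a6 and with Mgst2. Whether these markers were read from that lining or from the CP epithelium was not tested. Of 6 listed, 4 were measured, all well above background on all arrays, and their mean level was 4.22, 4.04 and 4.30 in OVX females, against 4.36, 4.37 and 4.49 in sham females. In males it was 4.05, 3.99, 4.22 and 4.31 in OOX pools, against 3.57, 3.87, 4.09 and 3.98 in sham pools. The OVX pools lay below all sham female pools in this level, as they did in Ugt1a6. OOX male 4 had the highest male value of this level and of the brighter Ugt1a6 probe. The 4 markers differed among themselves: OVX minus sham was -0.73 for Rarres2, -0.19 for Foxj1, -0.05 for Cfap126 and 0.07 for Tmem212. In the same order OOX minus sham was 0.53, 0.10, -0.13 and 0.55. Over the 14 arrays the Pearson correlation of the brighter Ugt1a6 probe with the ependyma level was 0.85 (Spearman 0.89), and 0.82 about the group means. For Mgst2 it was 0.66 (Spearman 0.65), and 0.81 about the group means. The dimmer Ugt1a6 probe was lowest among OVX pools in OVX female 3 (3.41), where the ependyma level was highest among them (4.30). Its highest male value was in OOX male 1 (3.69, ependyma level 4.05), while OOX male 4, with the highest male ependyma level (4.31), read 3.48. OOX male 2 was the lowest OOX pool in both (2.92 and 3.99). The correlation of the dimmer probe with the ependyma level was not computed, so the likeness given here is that of the brighter probe only. Fibroblast markers, 8 of 10 measured, lay lower in OVX (3.28 to 3.97) than in sham females (4.11 to 4.30), and spanned 3.83 to 4.48 in OOX and 3.18 to 4.72 in sham males, with a correlation with Mgst2 of 0.63 about the group means. These are descriptions of arrays that share tissue dissection and scaling, and the part of either marker list in the values of Ugt1a6 and Mgst2 was not tested.

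**Figure D2:**
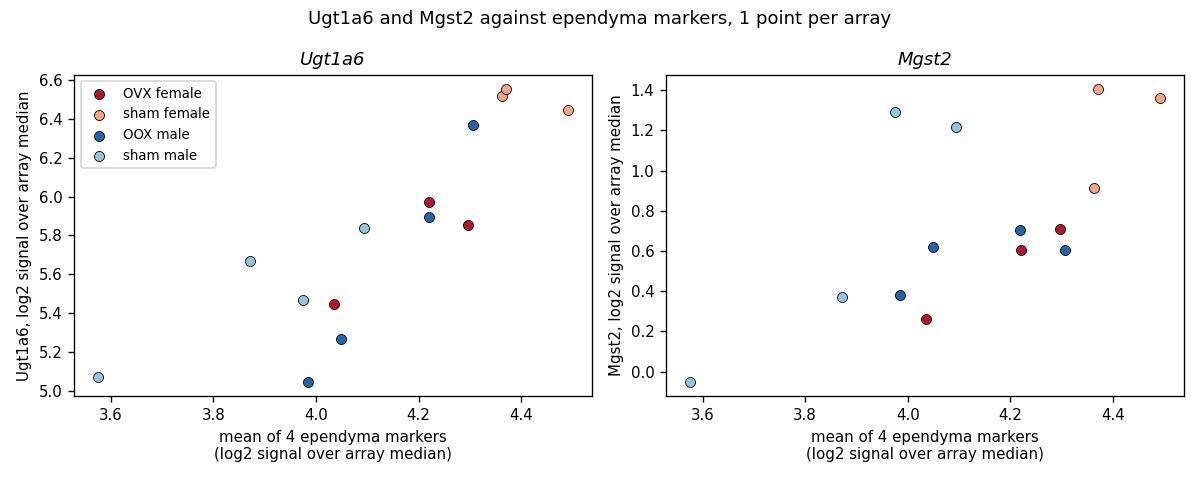
Log2 signal over the array median (y axis) of the brighter Ugt1a6 probe (left) and of Mgst2 (right) against the mean of 4 ependyma markers on the same scale (x axis), 1 point per array, coloured by group. The sham female points lie at the upper right of the Ugt1a6 panel, at 6.44 to 6.55, and sham male 1 lies lowest in marker level in both panels, at 3.57.

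In males, none of the 10 genes was called in either direction, against 0.0858% of all named genes called higher and 0% called lower. Among the 11460 named genes well above background on every array, 1 was called higher and 0 lower. At an unadjusted p under 0.05 limma gave 0 of the 10, against 1041 of the 15154 named genes and 659 of those 11460. The thresholds of the methods also gave 0 of the 10. OOX and sham pools overlapped for all 10 genes, against 2.44% of all named genes wholly higher and 1.56% wholly lower in OOX pools. Leaving out the saturated Gsta4, the differences of the other 9 ran from -0.23 to 0.13 with a median of -0.03, against 0.02 over all named genes. The intervals of Gstm1, Ugt1a6, Mgst2 and Mgst3 each spanned more than 1 log2 unit in males, so changes within those intervals remain compatible with these arrays.

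**Figure D3:**
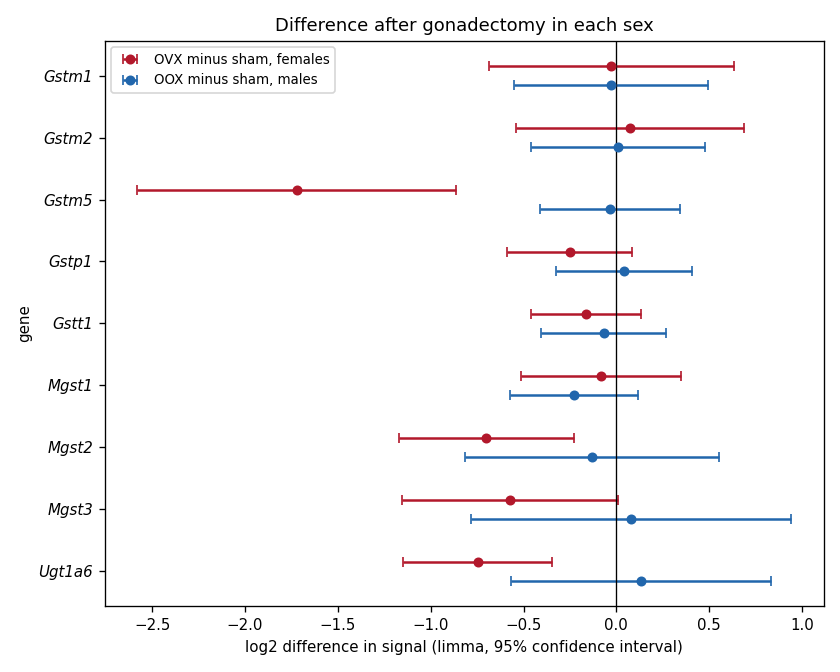
Log2 difference in signal (x axis) with its 95% confidence interval from limma for 9 of the 10 genes (y axis), OVX minus sham in females and OOX minus sham in males; Gsta4 is left out because its probe was saturated on 11 arrays. The female intervals of Gstm5, Mgst2 and Ugt1a6 lie wholly below 0, and all male intervals include 0.

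The female and male effects were compared directly, as the OOX minus sham difference less the OVX minus sham difference over all 14 arrays. None of the 10 genes passed, against 0.185% of all named genes called higher and 0.066% called lower. Among the 11460 named genes well above background on every array, 21 were called higher and 8 lower. Of the 10, 2 had an unadjusted p under 0.05, Gstm5 and Ugt1a6, against 1557 of the 15154 named genes and 879 of those 11460. For Gstm5 the male effect exceeded the female effect by 1.69 (95% confidence interval 0.87 to 2.51, adjusted p = 0.114), and for Ugt1a6 by 0.88 (95% confidence interval 0.01 to 1.75, adjusted p = 0.428). For Mgst2 and Mgst3 the values were 0.57 (95% confidence interval -0.31 to 1.45) and 0.65 (95% confidence interval -0.47 to 1.77). A difference between the sexes was therefore not established for any member at this threshold, and all males were scanned on the second day.

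The genes whose pattern over the 14 arrays was nearest to that of Gstm5, by Pearson correlation among 11416 other genes well above background on all arrays, were Kcnj14 (0.91), Gfra1 (0.90) and Meis1 (0.90). Kcnj14 encodes an inwardly rectifying potassium channel. It read 1.32, 0.86 and 0.82 in OVX females, against 5.84, 5.89 and 5.16 in sham females, and 0.71, 1.24, 0.81 and 1.41 in OOX males, against 1.32, 0.81, 1.25 and 0.46 in sham males. Gfra1, a co-receptor for glial cell line-derived neurotrophic factor, read -3.16, -3.10 and -2.63 in OVX females, against 0.28, 0.89 and 0.33 in sham females, with all male arrays between -3.31 and -2.58. Meis1, a homeodomain transcription factor, read 0.50, 0.13 and 1.07 in OVX females, against 4.42, 4.59 and 4.01 in sham females, with all male arrays between -0.04 and 1.19. As for Gstm5, the 3 sham female arrays of these genes stood apart from the other 11, and the likeness rests on that step, since the Spearman correlations were 0.54, 0.32 and 0.60. The genes nearest to Gsta4, the member with the largest test statistic in males, were Rnaset2, Rpl4 and Mrfap1 (Pearson 0.98 each), whose probes were saturated on 12, 5 and 11 of the 14 arrays.

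**Figure D4:**
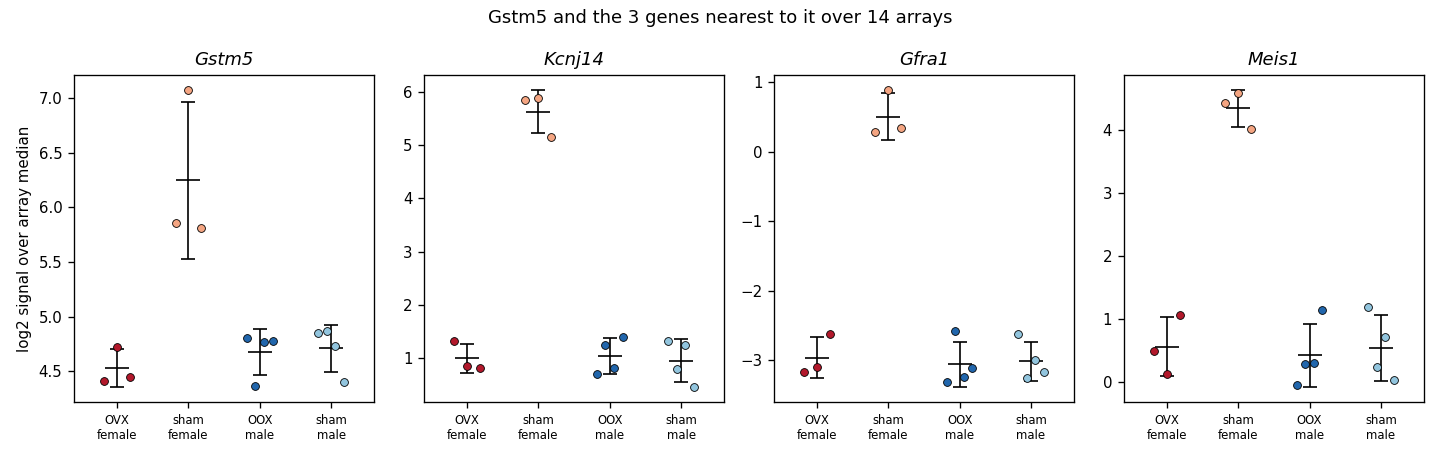
Log2 signal over the array median (y axis, own scale in each panel) of Gstm5 and of Kcnj14, Gfra1 and Meis1 by group (x axis), 1 point per array with mean and SD. In each panel the 3 sham female points lie above the points of the other 3 groups.

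Among the 20 other glutathione transferases measured, of 22 listed, 0 were called in either sex, with medians of -0.04 in females and 0.07 in males. Of the 20, 7 in females and 0 in males had an unadjusted p under 0.05. Such counts, here and in the lists below, stand against 3027 of 15154 named genes in females and 1041 of 15154 in males. Among the 11460 named genes well above background on every array they stand against 1452 and 659. The gene with the smallest p in females was Gsta2, a gene dim on every female array, and in males Gsta1, an alpha-class transferase whose probe was saturated on all 14 arrays, so that no difference is given for either. At an unadjusted p under 0.05 in females, Gsto1 (0.38), Gsto2 (0.34), Ltc4s (0.33) and Gstm3 (0.65) were higher in OVX pools. Gsta3 (-0.37) and Gsta5 (-0.43) were lower. The limma adjusted p of these genes ran from 0.130 to 0.204. The other mu-class genes of this list, Gstm4, Gstm6, Gstm6l and Gstm7, differed by 0.26, 0.34, 0.06 and -0.13 in females. Gstm3 and Gstm6 were well above background on 2 of 3 sham female arrays. Of 18 genes of glutathione synthesis and breakdown, 5 had an unadjusted p under 0.05 in females and 1 of them was called, Ggt6, a member of the gamma-glutamyltransferase family. It averaged -2.88 ± 0.23 in OVX and -3.76 ± 0.27 in sham females (SD, n = 3 each), a difference of 0.88 (adjusted p = 0.0487). The probe stood well above background on 3 OVX arrays and 1 sham array. In males 0 of the 18 were called, 0 had an unadjusted p under 0.05, and the smallest p belonged to Cth, which makes cysteine from cystathionine, with a difference of 0.33 (adjusted p = 0.712).

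Of 12 glutathione peroxidases and glutaredoxins measured, 4 had an unadjusted p under 0.05 in females and 1 of them was called, lower, Gpx5, whose probe stayed dim (not well above background) in all 6 female pools, so that no fold is given. In males 0 were called, 3 had an unadjusted p under 0.05, of which Gpx1 and Gpx4 were saturated on all arrays, and the smallest p belonged to Prdx6, a peroxiredoxin that uses glutathione, at 6.06 ± 0.27 in OOX and 6.60 ± 0.19 in sham males (SD, n = 4 each), a difference of -0.54 without overlap (adjusted p = 0.573). Of 22 other glucuronosyltransferases and enzymes of their substrate listed, 13 were measured. Only 5 of the 13, Ugt1a9, Ugt2b15, Ugt8, Ugdh and Ugp2, were well above background on all arrays. In females 6 of the 13 had an unadjusted p under 0.05. The 2 called lower in females, Ugt2a1 and Ugt2b1, were not well above background on any of the 14 arrays; 0 of the 13 were called in males, where 1 had an unadjusted p under 0.05. Apart from these dim probes no gene of this list was called, and Ugt1a6 itself missed the threshold.

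Of 24 other conjugating and reducing enzymes measured, 4 had an unadjusted p under 0.05 in females and 1 of them was called, Sult2b1, a sulfotransferase of hydroxysteroids, well above background on 1 OVX array and 0 sham arrays, with no fold above the background floor. In males 0 of the 24 were called, 3 had an unadjusted p under 0.05, and the smallest p belonged to Ephx2, the soluble epoxide hydrolase, at 2.02 ± 0.24 in OOX and 2.53 ± 0.22 in sham males (SD, n = 4 each, adjusted p = 0.603). None of 23 genes of the NRF2 pathway was called in either sex, and 3 had an unadjusted p under 0.05 in each. The smallest p belonged to Maff in females, with a difference of 0.40 (adjusted p = 0.142), and to Tkt in males. Tkt and the other 2 genes at an unadjusted p under 0.05 in males, Fth1 and Ftl1, had probes saturated on all 14 arrays, so no difference is given for them. The medians of this list were -0.07 in females, as over all named genes, and 0.01 in males.

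None of 8 xenobiotic receptors was called in either sex, and 1 had an unadjusted p under 0.05 in each. Nr1i2, the pregnane X receptor, was 3.45 ± 0.29 in OVX and 4.08 ± 0.40 in sham females (SD, n = 3 each), a difference of -0.63 without overlap (adjusted p = 0.203), and Arnt, the partner of the aryl hydrocarbon receptor, differed by -0.38 in males (adjusted p = 0.648). None of 8 transporters of conjugates was called, with 1 in females and 0 in males at an unadjusted p under 0.05. Abcg2, an efflux pump, differed by -0.49 in females (95% confidence interval -0.98 to -0.01, adjusted p = 0.217), and Abcc10 by -0.42 in males (adjusted p = 0.833). In the comparison of the effects between the sexes 0 genes of these lists were called, and the smallest p of each list belonged to Gsto2, Chac1, Gpx6, Ugt2b1, Ephx1, Srxn1, Ahr and Abcc2, with adjusted p from 0.328 to 0.507. Between 0 and 2 genes of each list had an unadjusted p under 0.05, against 1557 of 15154 named genes.

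**Figure D5:**
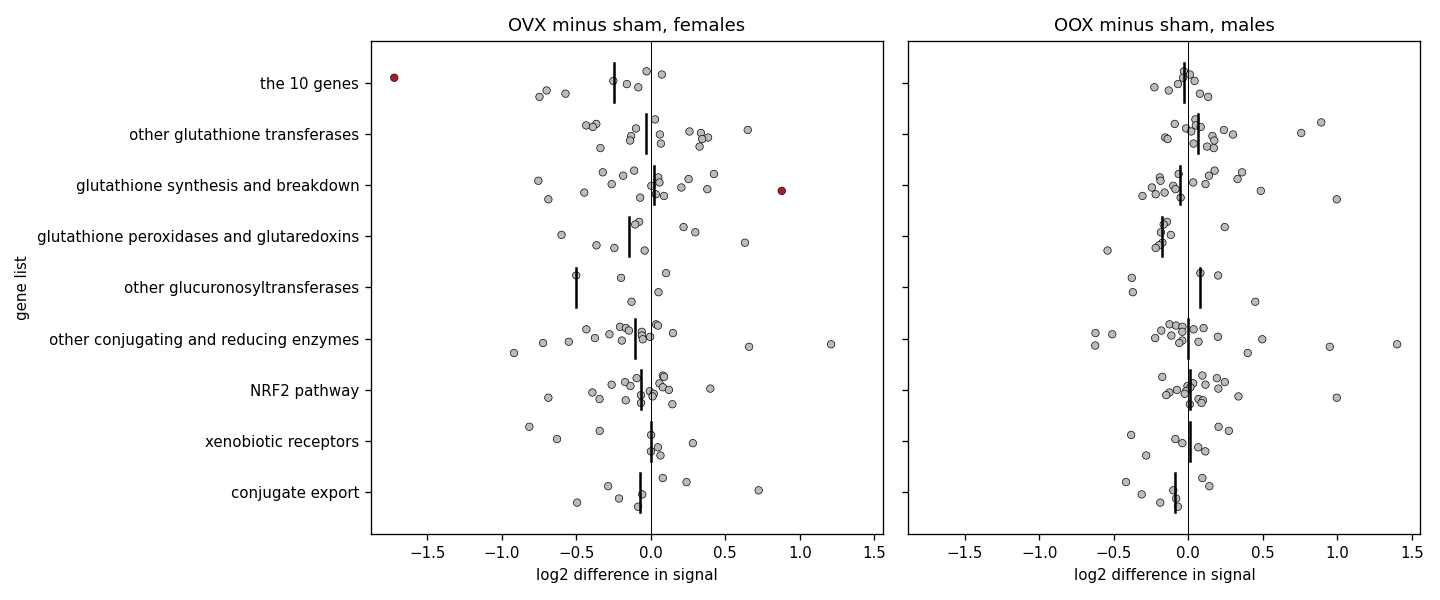
Log2 difference in signal (x axis) of each gene of 9 lists (y axis), 1 point per gene, OVX minus sham in females (left) and OOX minus sham in males (right), with genes at an adjusted p under 0.05 in red and the median of each list as a black line. Genes not well above background on any array of a group, Gsta4 and genes saturated on all 14 arrays enter the medians and are not drawn; the red points are Gstm5, at -1.72, and Ggt6, at 0.88, and the male panel has none.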

How the data were processed

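CP RNA of 14 pools was labelled with Cy3 and hybridised to Agilent rat arrays. The deposited scanner files hold 1 fluorescence intensity per spot, with the background already subtracted by Agilent's Feature Extraction software. The deposited value table holds log2 values that the authors made with BRB-ArrayTools; it differed from the scanner signal by 1 constant per array and served as an alternative.

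Outlier spots (222 to 877 of 42877 per array) were left out, saturated ones kept, and spots of a probe averaged. The log2 signal minus the array median was used. Probes were named from their accession through a RefSeq table (GRCr8, names only; the arrays were annotated on rn4). Of 30367 probes, 18004 gave 15154 genes; the brightest probe of a gene was used. Each member has 1 probe, Ugt1a6 has 2. The scanner judged 79.7% to 87.2% of spots well above background. The number of arrays limits the precision.

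Groups were compared within each sex with limma 3.58.1 in R 4.3.3, and the difference of the 2 effects (male minus female) was fitted over all arrays, with Benjamini-Hochberg adjustment over 27517 named genes and unnamed probes. The scripts were tested on simulated data. Alternatives were other scalings, quantile normalization, normexp with an offset of 50 (on median signals, in place of the mean signals planned), probe and spot filters, array weights, slide, scan day or replicate number as a block, all groups in 1 fit, the methods' t-test and leaving out each array. Named genes were the members, up to 4 called genes of each list by test statistic or, with none, the 1 with the smallest p, and the 3 genes most correlated with the leading member of each sex. Gpx1, Gpx4, Fth1, Ftl1, Ugt1a9, Ugt2b15, Ugt8, Ugdh and Ugp2 were named after their values were seen. So were Gsto1, Gsto2, Ltc4s, Gsta3, Gsta5, Gstm3, Gstm4, Gstm6, Gstm6l, Gstm7 and the single ependyma markers. The members and lists were chosen with earlier results of these data known. Sequences are from RefSeq; figures used matplotlib.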

Additional observations from a re-analysis of the deposited data

Results flagged for a closer look

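Of 20 groups of 4 male arrays examined, 4 had an array far from the other 3 by Dixon's ratio, the gap to the nearest array over the range of the group, above Dixon's 95% critical value for 4 samples; chance gives about 1 such group in 20. OOX male 2 was lowest for Gstm5 (4.36, the next OOX array at 4.77, ratio 0.921), for Gstp1 (5.56, next 6.04, ratio 0.954) and for Gstt1 (2.08, next 2.38, ratio 0.875). Sham male 1 was lowest for Gstt1 (2.11, next 2.46, ratio 0.885). These are the 2 arrays with the highest astrocyte markers, 4.02 and 3.75, and with the highest neuron markers, 0.35 and 0.58. Over the 14 arrays Gstt1 had a Pearson correlation of -0.95 with the astrocyte level about the group means (-0.67 without that adjustment). About the group means it was -0.81 with the neuron level and -0.81 with the oligodendrocyte level. The part of these markers was not tested.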

How the results depend on the processing

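Gstm5 was lower in OVX than in sham females under all alternatives, by 1.31 to 1.94 on the log2 scale when each array was left out and with 0 or 1 member then called. Of the members, 1 was called lower in females as reported. The count was 0 with scaling to the 75th percentile (Gstm5 adjusted p = 0.0557), quantile normalization (0.127), the filter on dim probes (0.0522) or array weights (0.0525). It was also 0 with the replicate block (0.0732) and with the methods' t-test after Benjamini-Hochberg (0.144). The blocks for slide and for scan day left only OVX female 1 to set against sham pools. The count was 2, Gstm5 and Ugt1a6, with outlier spots kept or with the probes of every gene averaged. Replicate numbers are not stated to pair the pools. Same-numbered pools deviated from their group means with correlations of 0.20, -0.03 and 0.14 in females and -0.11, -0.39, 0.00087 and 0.21 in males. So few arrays, which also share slides, cannot show whether pools were paired. With the replicate block, 0 named genes were called higher and 0 lower in females, 7 and 1 in males; comparing the effects of the 2 sexes, it called 10 higher and 5 lower. Of the other members no call changed under any alternative in either sex.

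Counts over all named genes moved much more. In females 277 were called higher and 670 lower as reported, 37 and 27 with quantile normalization, 37 and 73 with normexp, 106 and 82 with the filter on dim probes, 0 and 0 with a slide block, 13 and 1 with a scan day block, 140 and 91 when the fit held all 4 groups, and 3 and 0 by the methods' t-test after Benjamini-Hochberg; leaving out 1 array gave 1 to 172 higher and 1 to 779 lower, with both highest counts without sham female 2. In males 13 were called higher and 0 lower as reported; the count higher was 0 with normexp, with all 4 groups in 1 fit and with the methods' t-test, 23 with array weights and 6 to 12 when each array was left out, and the count lower was 1 with the 75th percentile, quantile normalization, the deposited value table, the filter on dim probes or slide as a block, 4 with array weights and 0 to 1 when each array was left out. In the difference between the sexes 28 were called higher and 10 lower as reported; the counts were 75 and 61 when arrays were weighted, 44 and 40 at the 75th percentile, 10 and 0 under a slide block, and 9 and 17 under a scan day block, the count lower was 24 with quantile normalization, 16 with normexp, 28 with the value table and 20 with the filter on dim probes, and leaving out 1 array gave 12 to 32 and 5 to 17. The cause was not tested.

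Differences near 0, none of them called, changed sign. In females Gstm1 was 0.054 with the 75th percentile, 0.11 with quantile normalization and 0.027 with the value table and Mgst1 was 0.011 with quantile normalization and 0.065 under a scan day block. In males Gstm1 was 0.012 with normexp and 0.089 with array weights, Gstm5 0.045 with array weights, and with slide as a block Gstm2 was -0.26, Gstt1 0.085 and Mgst2 0.44. Leaving out each array gave female ranges of -0.27 to 0.17 for Gstm1, -0.16 to 0.28 for Gstm2 and -0.23 to 0.018 for Mgst1, and male ranges of -0.18 to 0.10 for Gstm1, -0.13 to 0.15 for Gstm2, -0.14 to 0.071 for Gstm5, -0.011 to 0.17 for Gstp1, -0.16 to 0.011 for Gstt1, -0.38 to 0.063 for Mgst2, -0.12 to 0.40 for Mgst3 and -0.11 to 0.33 for Ugt1a6. Of the genes named, saturation limits Gsta4, Gsta1, Tkt, Gpx1, Gpx4, Fth1, Ftl1, Rnaset2, Rpl4 and Mrfap1, for which no difference is given, and weak signal limits Ggt6, Gpx5, Ugt2a1, Ugt2b1, Gsta2, Sult2b1, Gstm3 and Gstm6.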
